A study of Mus musculus with 18 samples.

Results

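The genes described here mark the base of the colonic crypt or are switched on by Wnt signalling there. They were Lgr5, Ascl2, Smoc2, Axin2, Rnf43, Sox9, Ephb2, Ephb3, Znrf3 and Cd44, and every probe set of the array that the platform annotation assigns to exactly 1 of these symbols was taken, whatever its signal. That gave 20 probe sets for 9 of the 10 genes, among 18193 genes with a probe set of their own. No probe set carried Ephb2 as its only symbol in the annotation used, and its level was not analysed here.

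The tissue was distal colon of mice kept for 2 weeks under 12 h of light and 12 h of dark (lights on at clock hour 7, off at 19), with food always available, and the series asked which transcripts are rhythmic over the day. Colon was taken at 8am, 12pm and 4pm in the light and at 8pm, 12am and 4am in the dark, which is 1, 5, 9, 13, 17 and 21 h after lights on. Each time had 3 arrays, a, b and c, and all mice shared the lighting and the feeding. No strain, sex, age or genotype is given in the sources used here. Nothing in the labels ties an array to a single mouse or to a pool, so p-values measure only the spread between these samples, which may be technical.

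Stem cells at the crypt base divide throughout life and their daughters move up to become absorptive and goblet cells. Wnt proteins bind Frizzled receptors on these cells and stabilise β-catenin, which acts with TCF factors to switch on target genes. Several targets feed back: Rnf43 and Znrf3 are ubiquitin ligases that remove Frizzled from the cell surface, Axin2 is a scaffold of the complex that destroys β-catenin, and Lgr5 is a receptor for R-spondins, which keep the ligases in check.

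Each array of the series was scaled to a trimmed mean signal of 500. Levels below are log2(signal + 16) of the deposited signal, the arrays' number limits the precision, and levels of different probe sets are not comparable. Over all probe sets the mean r was 0.912 between arrays of a time and 0.87 between arrays of different times. The 3′ to 5′ signal ratio of the Gapdh control, which grows when RNA is degraded, was between 0.746 and 1.12 in 14 arrays. The other 4 were 4pm b at 34.3, 4pm c at 2.33, 4am a at 36.05 and 4am b at 18.2, so only 1 of the 3 arrays at 4pm and at 4am had a low ratio. The 7 general epithelial markers had a mean log2 level of 13.35 to 14.08 in the 14 arrays, against 13.12, 13.62, 12.36 and 12.72 in those 4 arrays in the same order. The 8 smooth muscle markers averaged 12.09 to 13.22 in the 14 arrays, against 11.66 (4pm b), 12.96 (4pm c), 9.48 (4am a) and 12.15 (4am b). The 6 fibroblast markers averaged 11.06 to 11.72 in the 14 arrays, against 11.90, 11.58, 11.86 and 12.25 in the same order. The part of RNA quality and of tissue make-up in the results was not tested, and in whole colon fewer cells of a type and less RNA per cell cannot be told apart.

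Of the 20 probe sets, 13 passed the filter on low signal (a mean log2 level of at least 7.10 over all arrays) and these cover all 9 genes. The probe sets next to the limit both belong to Ascl2, with means of 7.31 inside and 6.72 outside. Each gene is stood for by its brightest probe set, and Ascl2, Smoc2, Sox9 and Cd44 have another one that was kept. The brightest probe sets were 1450988_at for Lgr5, 1460514_s_at for Ascl2, 1415935_at for Smoc2, 1436845_at for Axin2, 1427008_at for Rnf43, 1424950_at for Sox9, 1451550_at for Ephb3, 1435608_at for Znrf3 and 1434376_at for Cd44. A name ending in _s_at means that the probes can also match transcripts of other genes.

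**Figure D1:**
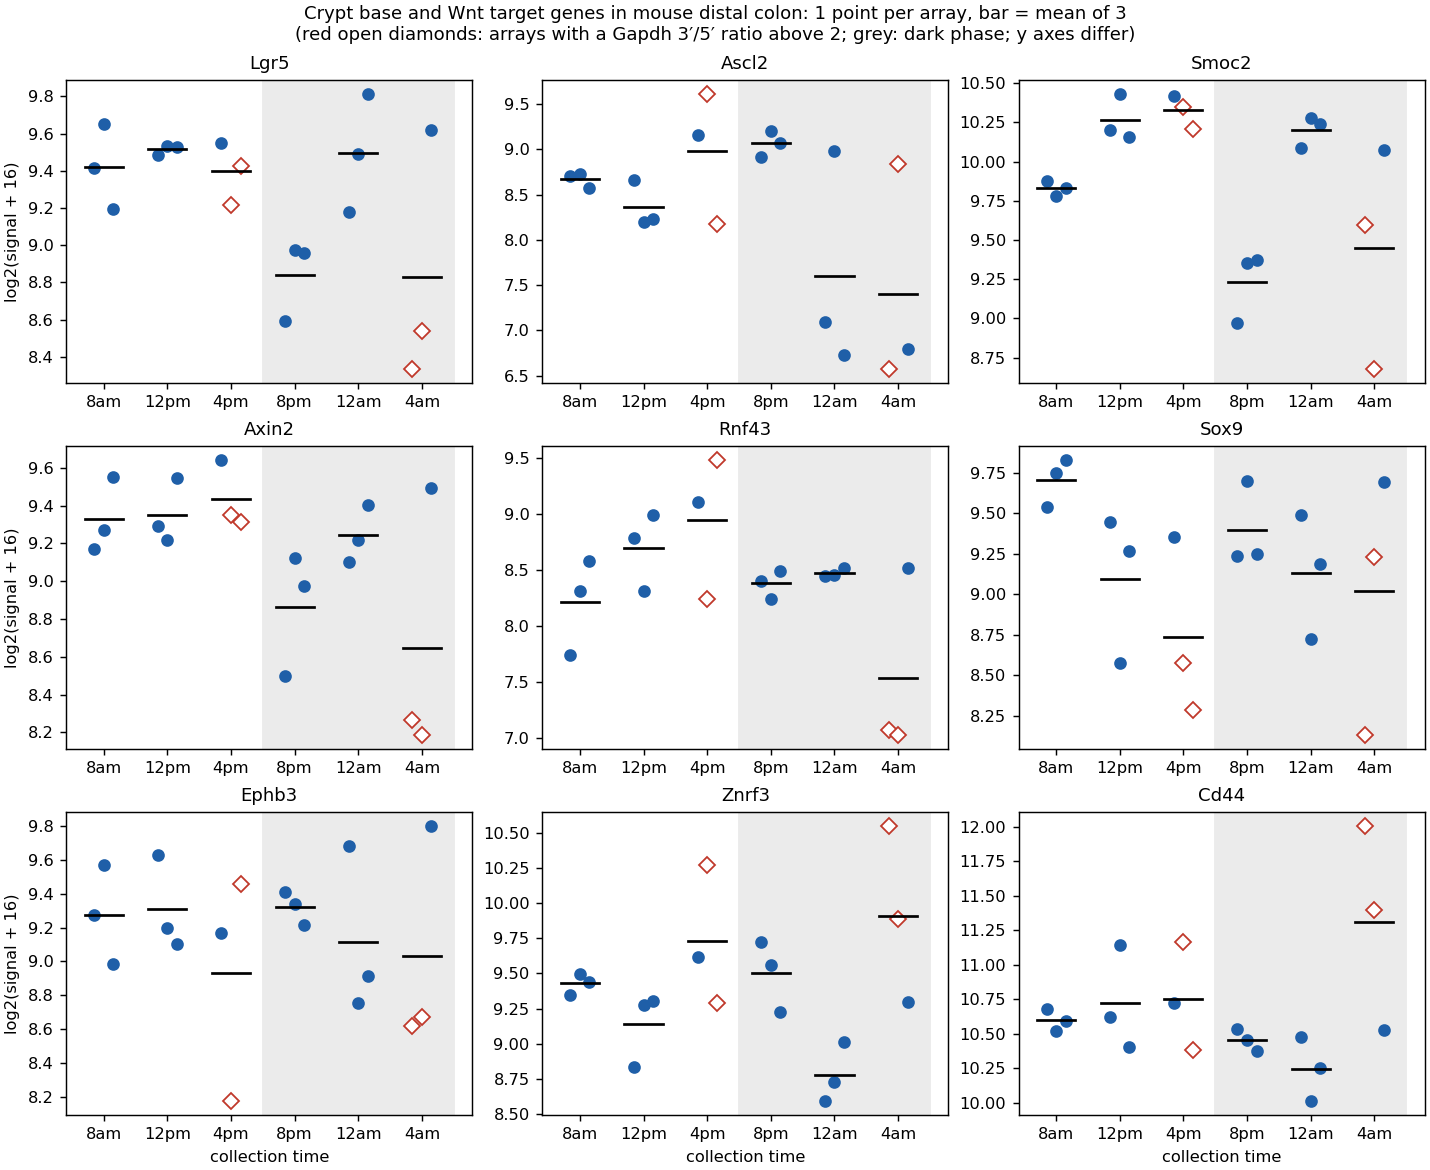
Log2(signal + 16) of the brightest probe set of each gene (y axis, scale differs by panel) at each collection time (x axis), with 1 point per array and a bar at the mean of 3. Open red diamonds are the 4 arrays with a Gapdh 3′/5′ ratio above 2. Lgr5, Axin2 and Rnf43 are low in 4am a and 4am b and not in 4am c, Znrf3 and Cd44 are high in those arrays, and Smoc2 is lower at 8pm than at 8am in all arrays.

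Over the 6 times, Smoc2 was the only member whose level differed past the threshold. Smoc2 encodes a secreted matrix-associated protein found in intestinal stem cells. In the light its log2 level was 9.88, 9.78 and 9.83 (8am), 10.20, 10.43 and 10.16 (12pm) and 10.42, 10.35 and 10.21 (4pm). In the dark it was 8.97, 9.35 and 9.37 (8pm), 10.09, 10.28 and 10.24 (12am) and 9.60, 8.68 and 10.07 (4am). In descending order the mean was 10.33 ± 0.11 for 4pm, 10.26 ± 0.15 for 12pm, 10.20 ± 0.10 for 12am, 9.83 ± 0.05 for 8am, 9.45 ± 0.71 for 4am and 9.23 ± 0.23 for 8pm (SD, n = 3 each). The 3 highest times overlapped each other. All 3 arrays of 8am lay below all arrays of 12pm, 4pm and 12am and above all arrays of 8pm, while the arrays of 4am lay as far apart as 8.68 and 10.07. The limma F test over the 6 times gave an adjusted p of 0.0349.

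That call was 1 of 13 probe sets, against 12.9% of all probe sets tested, so the members were not called more often than probe sets in general. At an unadjusted p under 0.05 there were 5 of 13, against 38.9% of all: Smoc2 1415935_at, Ascl2 1460514_s_at, Rnf43, Znrf3 and Cd44 1423760_at, with adjusted p from 0.0349 to 0.1095. The Smoc2 call rests on little margin. It was lost when any array of 8am, 12pm, 8pm or 12am, or 4pm a, was left out (adjusted p 0.0508 to 0.0856), and kept without any of 4pm b, 4pm c, 4am a, 4am b or 4am c. Without the 4 arrays with a high Gapdh ratio together, its adjusted p was 0.00326.

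The other kept Smoc2 probe set, 1431362_a_at, did not pass (adjusted p = 0.2873). Its mean was 8.34 (8am), 8.75 (12pm), 8.13 (8pm) and 8.58 (12am), but it read 8.92, 5.89 and 8.25 at 4pm and 6.63, 7.20 and 8.46 at 4am. In 4pm b it differed from its mean over the 14 arrays with a low ratio by -2.59, whereas 1415935_at differed by 0.41. The Smoc2 probe sets correlated with r = 0.30 over 18 arrays and r = 0.79 over the 14, so they disagreed chiefly in the arrays with a high ratio.

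**Figure D2:**
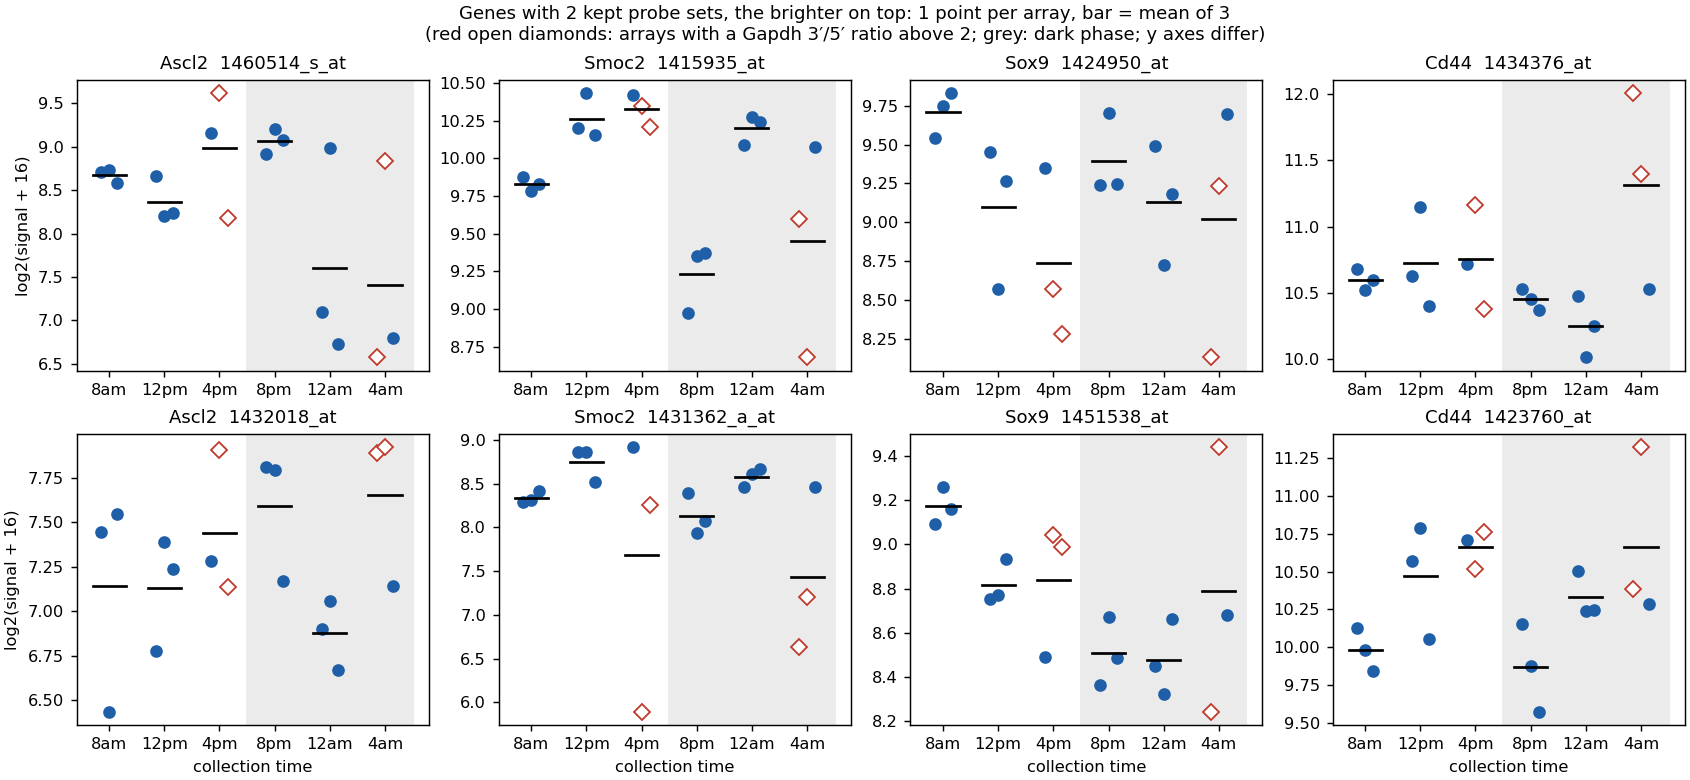
Log2(signal + 16) at each collection time for the 4 genes with 2 kept probe sets, the brighter on top (1 point per array, bar at the mean of 3, open red diamonds for a Gapdh ratio above 2). The Smoc2 probe sets part in 4pm b, where the upper reads 10.35 and the lower 5.89.

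Lgr5, the R-spondin receptor that marks the stem cells, had its highest mean at 12pm (9.52 ± 0.03), followed by 12am (9.49 ± 0.32), 8am (9.42 ± 0.23), 4pm (9.40 ± 0.17), 8pm (8.84 ± 0.21) and 4am (8.83 ± 0.69; SD, n = 3 each). The first 4 of these times overlapped each other, and so did 8pm and 4am. Its low values were the 3 arrays of 8pm, at 8.59, 8.97 and 8.96, and 2 arrays of 4am, at 8.34 and 8.54. The remaining array of 4am, the one with a low Gapdh ratio, read 9.62. Lgr5 did not pass over the 6 times (adjusted p = 0.1514).

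Axin2, the scaffold of the destruction complex, followed the same arrays. It read 9.17, 9.27 and 9.55 at 8am, against 8.50, 9.12 and 8.97 at 8pm, and these groups did not overlap. At 4am it read 8.26, 8.19 and 9.50, again with the array of low ratio apart from the other 2. Its adjusted p over the 6 times was 0.1833. A dimmer Axin2 probe set, 1421341_at, fell below the filter with a mean of 6.69, and correlated with the brighter at r = 0.65 over 18 arrays and 0.74 over the 14. Dim probe sets of Lgr5 and Znrf3, below the filter as well, went less closely with the brighter ones. For Lgr5 1444519_at r was 0.315 over 18 arrays and 0.395 over the 14, with its lowest mean at 8pm (6.25). For Znrf3 1437646_at r was -0.178 over 18 arrays and 0.02 over the 14.

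Of the ligases, Rnf43 was highest at 4pm and lowest at 4am. It read 9.10, 8.24 and 9.49 at 4pm, against 7.07, 7.02 and 8.52 at 4am, while the 6 arrays of 8pm and 12am lay close together, between 8.24 and 8.52. Its adjusted p over the 6 times was 0.0991. Znrf3 ran the other way in the same arrays, with 10.55, 9.89 and 9.30 at 4am and 9.62, 10.28 and 9.29 at 4pm. Its lowest time was 12am, at 8.59, 8.73 and 9.01, and its adjusted p was 0.0820. All 3 Znrf3 arrays of 12am lay below all arrays of 8am, 4pm, 8pm and 4am. These values are of the brightest Znrf3 probe set. The dimmer 1437646_at, below the filter, had its lowest mean at 4pm (5.57) and its highest at 8pm (7.06).

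Ascl2, a transcription factor of crypt base stem cells, had the widest spread of the 9 genes. On 1460514_s_at it read 8.92, 9.21 and 9.07 at 8pm, its highest time, and 7.10, 8.99 and 6.73 at 12am and 6.57, 8.84 and 6.80 at 4am. In each of these last groups array b stood about as high as the arrays of other times, with Gapdh ratios of 0.877 in 12am b and 18.2 in 4am b. Over the 6 times the adjusted p was 0.1095, and without the 4 arrays of high ratio it was 0.0342. It also passed when 12am b or 4am b alone was left out (adjusted p 0.0461 and 0.0281). The kept probe set 1432018_at was also low at 12am, its lowest mean at 6.88, but had its highest mean at 4am, at 7.65. At 4am it read 7.89 and 7.92 in 4am a and 4am b, which have a high ratio, and 7.14 in 4am c. These 2 Ascl2 probe sets correlated with r = 0.27 over 18 arrays and 0.41 over the 14.

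Sox9, a transcription factor of the lower crypt, was highest at 8am on both kept probe sets. On 1424950_at it read 9.54, 9.75 and 9.83 at 8am, and the means of the other times lay between 8.74 at 4pm and 9.40 at 8pm (adjusted p = 0.3069). On 1451538_at it read 9.09, 9.26 and 9.16 at 8am, and the other means lay between 8.48 at 12am and 8.84 at 4pm (adjusted p = 0.2443). The kept Sox9 probe sets correlated with r = 0.27 over 18 arrays and 0.50 over the 14. The dimmer Sox9 probe set 1433889_at, below the filter, had its lowest mean at 8am, at 5.615. Over 18 arrays it correlated with 1424950_at at r = -0.10 and with 1451538_at at -0.01.

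Of the surface receptors, Ephb3, an ephrin receptor that helps to keep cells in place along the crypt, had the flattest profile. Its time means lay between 8.93 at 4pm and 9.32 at 8pm, a range smaller than its SD within a time (0.47), and its adjusted p was 0.8611. Cd44, the hyaluronan receptor and a Wnt target, averaged 11.31 ± 0.74 at 4am on 1434376_at, against 10.25 to 10.75 at the other times, through values of 12.01 in 4am a and 11.39 in 4am b (adjusted p = 0.1377). In 4am c it read 10.53. On 1423760_at only 4am b stood out, at 11.32.

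The members' low and high values in the arrays with a high Gapdh ratio were counted against the 14 others. In 4am a, 8 of the 13 kept probe sets lay below all 14 arrays and 3 above all, where 34.1% and 24.1% of all kept probe sets did. In 4am b, 6 lay below and 5 above, against 25.5% and 21.1% of all. In 4pm b, 3 lay below and 4 above, against 20.6% and 17% of all. In 4pm c, 1 lay on each side, against 11.6% of all on either side. In both 4am a and 4am b, Lgr5, Axin2 and Rnf43 differed from their means over the 14 arrays by -1.47 to -0.82, and Znrf3 and Cd44 1434376_at by 0.64 to 1.48.

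**Figure D3:**
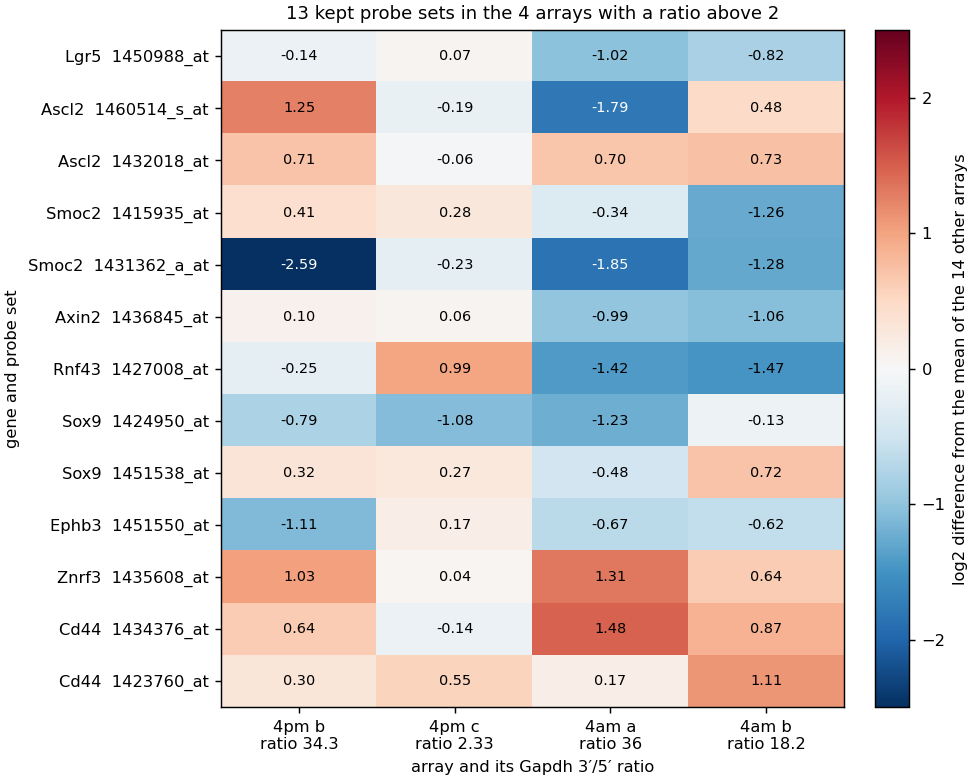
Log2 difference of each kept member probe set (rows) in each of the 4 arrays with a Gapdh 3′/5′ ratio above 2 (columns) from its mean over the 14 other arrays, in colour and in figures. Lgr5, Axin2 and Rnf43 are negative in both arrays of 4am, and Znrf3 and Cd44 are positive there.

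No member followed a 24 h cosine curve past the threshold. None of 13 probe sets passed, against 0.0111% (3) of all 27022 tested with limma, and at an unadjusted p under 0.05 there were 2 of 13, against 3.1% (837) of all. These were Rnf43, with a log2 amplitude of 0.54 ± 0.17 (SE) and a fitted peak 8.89 h after lights on (unadjusted p = 0.0146), and Ascl2 1460514_s_at, with 0.73 ± 0.25 and a peak at 8.44 h (unadjusted p = 0.02898). The adjusted p of every member was at least 0.9985. Fitted amplitudes ran from 0.04 for Ephb3 to 0.73 for Ascl2. Their median was 0.222 over the 9 genes, 0.198 over the 13 member probe sets and 0.189 over all probe sets tested. Without 4pm b, 4am a and 4am b the amplitude was 0.36 ± 0.15 for Rnf43 and 0.67 ± 0.27 for Ascl2.

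Light against dark, 8 of the 9 genes and 11 of the 13 probe sets had the higher mean in the light, where 52% of all probe sets did, and no member passed. The limma counts were 0 of 13 called, against 0% (0) of all, and 5 of 13 at an unadjusted p under 0.05, against 5.53% (1494) of all. All 5 were higher in the light, as were 3.26% of all: Smoc2 1415935_at by 0.51 ± 0.16 on the log2 scale, Rnf43 by 0.49 ± 0.22, Axin2 by 0.45 ± 0.17, Lgr5 by 0.39 ± 0.16 and Sox9 1451538_at by 0.35 ± 0.15 (SE, adjusted p = 0.8082 for each). The median difference was 0.388 over the 9 genes, 0.213 over the 13 member probe sets and 0.0114 over all probe sets tested. Without 4pm b, 4am a and 4am b the genes' median was 0.186, with Lgr5 at 0.16, Axin2 at 0.19, Rnf43 at 0.28 and Smoc2 at 0.30. The calls turned on a single array: without 4am c, the array of that time with a low ratio, Lgr5, Smoc2, Axin2 and Rnf43 passed (adjusted p 0.0110 to 0.0412), as did 5.56% of all probe sets in that fit.

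At 8am against 8pm, 4 of the 13 probe sets had all 3 arrays of 8am above all 3 of 8pm, where 6.63% of all probe sets did, and 1 had them below, where 7.98% did. None of these 6 arrays has a Gapdh ratio above 2. The 4 were Smoc2 1415935_at (9.78 to 9.88 at 8am, 8.97 to 9.37 at 8pm), Lgr5 (9.19 to 9.65 at 8am, 8.59 to 8.97 at 8pm), Axin2 and Sox9 1451538_at (9.09 to 9.26 at 8am, 8.36 to 8.67 at 8pm). The differences were 0.60 ± 0.27 for Smoc2, 0.58 ± 0.29 for Lgr5, 0.47 ± 0.30 for Axin2 and 0.66 ± 0.26 for Sox9 1451538_at (log2, SE). Ascl2 1460514_s_at lay the other way, with 8.58 to 8.73 at 8am and 8.92 to 9.21 at 8pm. The other kept probe sets of Sox9, Smoc2 and Ascl2 overlapped between these times. Sox9 1424950_at, the brighter, read 9.54 to 9.83 at 8am and 9.24 to 9.70 at 8pm. Smoc2 1431362_a_at read 8.29 to 8.41 and 7.93 to 8.39, and Ascl2 1432018_at 6.44 to 7.54 and 7.17 to 7.81. No member passed the limma test (adjusted p = 1 for all 13), where 0.0037% (1) of all did, and Smoc2 and Sox9 1451538_at had an unadjusted p under 0.05 (0.04155 and 0.02121), where 2.58% (697) of all did and 1.01% in this direction. The means of 8 of 13 were higher at 8am, where 46.4% of all were.

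At 12pm against 12am no member passed, and most means were higher at 12pm. Ascl2 1460514_s_at was higher at 12pm by 0.76 ± 0.57, Cd44 1434376_at by 0.48 ± 0.31 and Znrf3 by 0.36 ± 0.30 (log2, SE). In limma, 0 of 13 passed, against 0.0074% (2) of all, and 0 had an unadjusted p under 0.05, against 7.46% (2015) of all and 3.32% in the higher direction. The means of 12 of 13 were higher at 12pm, where 46.2% of all were, with a median difference of 0.196 over the 9 genes and standard errors between 0.261 and 0.565. Sox9 1451538_at was the 1 member probe set with all 3 arrays of 12pm above all 3 of 12am, where 10.6% of all were, and 0 were below, where 9.97% were. It read 8.75, 8.77 and 8.93 at 12pm, against 8.45, 8.32 and 8.66 at 12am.

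At 4pm against 4am Rnf43, Ascl2 1460514_s_at, Smoc2 and Axin2 had higher means at 4pm. Without the arrays with a high Gapdh ratio the differences of Rnf43, Smoc2 and Axin2 were smaller and that of Ascl2 1460514_s_at was not. The other kept Ascl2 probe set, 1432018_at, lay the other way with all arrays, at -0.21 ± 0.35 (SE). Rnf43 was higher at 4pm by 1.41 ± 0.38, Ascl2 1460514_s_at by 1.58 ± 0.57, Smoc2 1415935_at by 0.88 ± 0.27 and Axin2 by 0.79 ± 0.30 (log2, SE), with adjusted p from 0.2101 to 0.252. None of the 13 passed in limma, against 0.0185% (5) of all, and these 4 had an unadjusted p under 0.05, against 15.5% (4187) of all and 10.7% in this direction. The means of 7 of 13 were higher at 4pm, where 58.8% of all were. Only Smoc2 1415935_at had all 3 arrays of 4pm above all 3 of 4am, where 4.84% of all probe sets did, and 0 had them below, where 2.19% did.

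Leaving out 4pm b, 4am a and 4am b, which left 2 arrays at 4pm and 1 at 4am, moved most of these differences. The signs of 3 changed, to values smaller in size than their SE. Lgr5 was at -0.13 ± 0.29, against 0.57 with all arrays, Axin2 at -0.02 ± 0.30, against 0.79, and Cd44 1434376_at at 0.02 ± 0.28, against -0.56. Smoc2 was at 0.24 and Rnf43 at 0.78. Ascl2 1460514_s_at was at 1.87 ± 0.64, which rests on 4am c alone at that time, at 6.80. Leaving out 4am c instead took Lgr5 to 0.96, Axin2 to 1.21, Rnf43 to 1.90, Smoc2 to 1.19 and Cd44 1434376_at to -0.95, and these 5 of 13 then passed (adjusted p 0.000815 to 0.0168), as did 23.8% of all probe sets in that fit. In each such fit the lone or paired arrays left at 4am are taken to vary like the other groups.

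**Figure D4:**
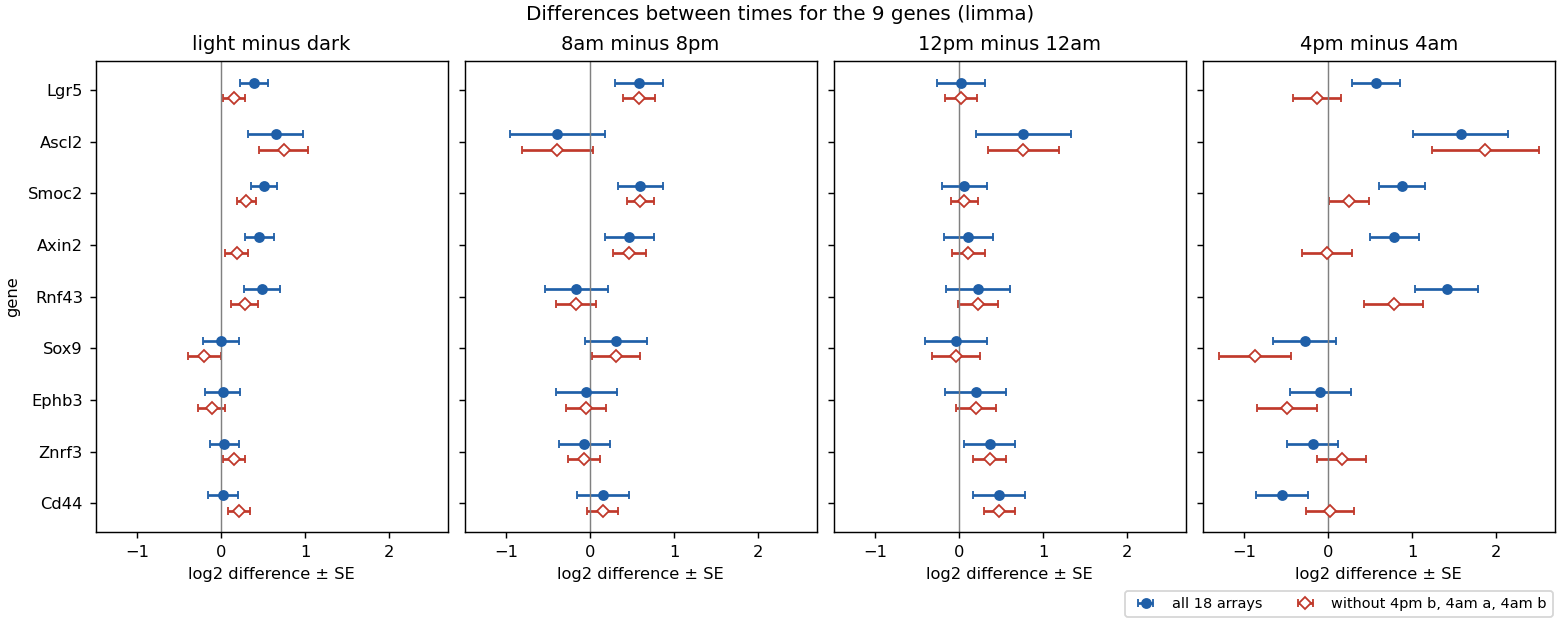
Log2 difference ± SE from limma (x axis) for the brightest probe set of the 9 genes (rows) in 4 comparisons of times (panels), with all 18 arrays (filled blue) and without 4pm b, 4am a and 4am b (open red). At 4pm minus 4am, Lgr5 and Axin2 are near 0 without those arrays, at -0.13 and -0.02, while Ascl2 is at 1.87.

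Times 12 h apart went together in many probe sets of this series, so the 3 sets of such times were compared as well, a test chosen with that known. In limma, 3 of 13 member probe sets passed, against 33.9% of all, a share no larger than the background, and 5 of 13 had an unadjusted p under 0.05, against 50% of all. Znrf3 averaged 9.47 ± 0.17 at 8am and 8pm, 8.96 ± 0.29 at 12pm and 12am and 9.82 ± 0.52 at 4pm and 4am (adjusted p = 0.0201). Cd44 1423760_at averaged 9.93 ± 0.21, 10.40 ± 0.27 and 10.66 ± 0.37 in the same sets (adjusted p = 0.0233). Smoc2 1415935_at averaged 9.53 ± 0.36, 10.23 ± 0.12 and 9.89 ± 0.66 (SD, n = 6 each; adjusted p = 0.0304). The other kept probe sets of Cd44 and Smoc2 did not pass and had other shapes in the same sets. Cd44 1434376_at, the brighter, averaged 10.53, 10.49 and 11.03 (adjusted p = 0.08965). Smoc2 1431362_a_at averaged 8.24, 8.66 and 7.56 (adjusted p = 0.08307). Znrf3 1437646_at, below the filter and not tested with the others, averaged 6.86, 6.41 and 5.69. It was thus lowest at 4pm and 4am, where the called Znrf3 probe set was highest. The call of Znrf3 was lost without 12pm a (adjusted p = 0.0509), without 4am a and 4am b together (0.0505) and with the Gapdh ratio as a covariate (0.0662). That of Cd44 1423760_at was lost without 8am c or 8pm c and with the covariate, and that of Smoc2 without any array of 8am, 12pm a, 12pm b, 8pm a, 12am b or 12am c (adjusted p 0.0523 to 0.0702).

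Lgr5, Axin2 and Smoc2 varied together over the arrays. Pearson's r over 18 arrays was 0.88 for Lgr5 with Axin2 (Spearman's rho 0.72), 0.79 for Lgr5 with Smoc2 and 0.79 for Smoc2 with Axin2. Over the 14 arrays with a low ratio these were 0.77, 0.85 and 0.74, and no other pair of the 36 was above 0.5. Axin2 with Rnf43 gave 0.77 over 18 arrays and 0.48 over the 14, Znrf3 with Cd44 gave 0.78 and 0.38, and Rnf43 with Cd44 gave -0.70 and -0.10. Over all 36 pairs the median r was 0.0552 with 18 arrays and -0.0275 with 14, and 6 pairs were below -0.5 over 18 arrays and 0 over the 14. The points share array, scaling and collection time, so these are descriptions.

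**Figure D5:**
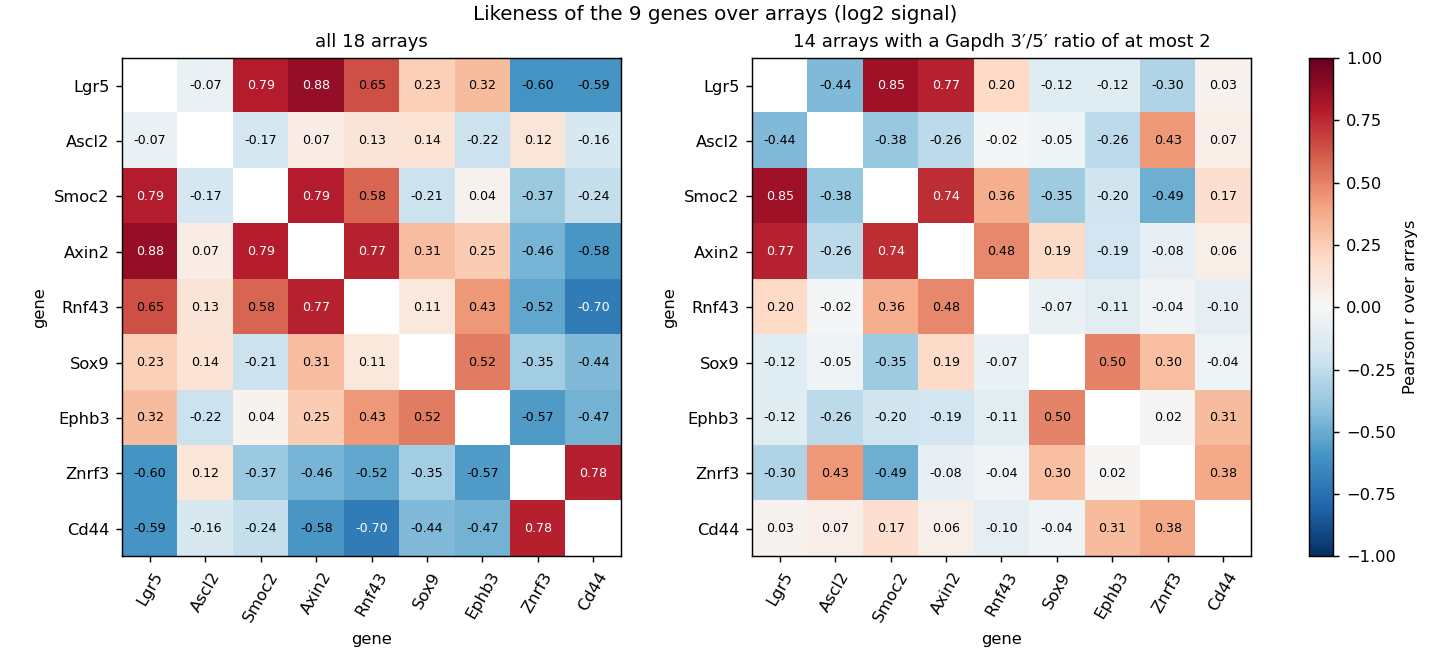
Pearson's r between the log2 levels of each pair of the 9 genes, over all 18 arrays (left) and over the 14 arrays with a Gapdh 3′/5′ ratio of at most 2 (right). The positive block of Lgr5, Smoc2 and Axin2 is in both panels (0.79 to 0.88 on the left, 0.74 to 0.85 on the right), and the negative values of Znrf3 and Cd44 with Lgr5 and Rnf43 shrink on the right.

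Because Axin2 and Rnf43 are direct feedback targets of the pathway and moved together over all arrays, the 250 bases before their annotated starts are shown, on the plus strand of GRCm38.p6 as given by RefSeq: Axin2 at chr11:108920099-108920348 and the first of 2 Rnf43 windows at chr11:87662837-87663086. All letters are in lower case because no searched motif was found.
Axin2: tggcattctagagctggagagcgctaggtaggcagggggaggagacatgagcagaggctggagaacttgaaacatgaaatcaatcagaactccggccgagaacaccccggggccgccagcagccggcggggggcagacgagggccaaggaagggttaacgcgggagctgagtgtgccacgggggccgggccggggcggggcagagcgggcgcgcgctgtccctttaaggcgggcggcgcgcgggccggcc
Rnf43: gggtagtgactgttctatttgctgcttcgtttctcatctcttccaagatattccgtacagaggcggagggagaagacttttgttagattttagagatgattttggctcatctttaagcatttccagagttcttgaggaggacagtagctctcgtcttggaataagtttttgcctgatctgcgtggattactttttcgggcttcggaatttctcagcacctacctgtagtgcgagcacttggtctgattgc
The motifs searched on both strands were the TCF/LEF core, which is CTTTGAA or CTTTGAT or CTTTGTA or CTTTGTT, and the E-box CACGTG bound by clock factors. Of 7 such windows of 6 of the 10 genes (Ascl2, Axin2, Cd44, Ephb2, Ephb3 and Rnf43), 0 held the TCF/LEF core and 0 the E-box, where 14.8% and 6.02% of 32851 RefSeq windows of the same length did. These letters are simply not in these windows. The Axin2 window is 69.2% G and C and the Rnf43 window 44.4%, against a median of 52.4% over all windows.

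The rest of the pathway was read from lists of genes with 1 probe set each, beside the 12.9% of all probe sets called over the 6 times and the 33.9% called between the sets of times 12 h apart. Of 13 tested Wnt receptors and co-receptors, 3 were called over the 6 times and 7 between the sets. They were Fzd6 (adjusted p = 0.0271), Lrp6 (0.0377) and Fzd2 (0.0480). Lrp6, the co-receptor of Frizzled, averaged 11.34 ± 0.35 at 4am and 11.16 ± 0.29 at 4pm against 10.08 ± 0.32 at 8pm, and Fzd2 averaged 9.88 ± 0.16 at 12am against 8.28 ± 0.80 at 4am (SD, n = 3 each). Both stood apart in arrays with a high ratio: Lrp6 differed from its mean over the 14 others by 0.61 to 1.25, and Fzd2, in 4pm b, 4am a and 4am b, by -1.49 to -1.27.

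Of 16 genes of β-catenin, its destruction complex and TCF partners, 1 was called over the 6 times and 6 between the sets. It was Dvl1, which relays the receptor signal, with 11.11 ± 0.66 at 4pm and 9.17 ± 0.31 at 8am (adjusted p = 0.00866). In the 4 arrays with a high ratio, 2 of them at 4pm, Dvl1 differed from its mean over the 14 others by 0.73 to 2.15. β-catenin itself, Ctnnb1, was not called (adjusted p = 0.0701). None of 7 ligands and R-spondins and none of 10 inhibitors passed over the 6 times, and 1 and 4 passed between the sets. Over the 6 times 1 and 4 had an unadjusted p under 0.05 in limma, where 38.9% of all probe sets did. Of 10 other Wnt targets 1 passed, Id2 (adjusted p = 0.0401; 0.88 and 1.98 above its mean over the 14 arrays in 4am a and 4am b), and 5 passed between the sets. Of 14 other crypt base markers 3 passed, Kit (adjusted p = 0.0195), Bmi1 (0.0462) and Slc12a2 (0.0483), and 4 passed between the sets. Each of the 3 had its highest mean at 4am, where 2 of 3 arrays have a high ratio. In 4am a and 4am b they differed from their means over the 14 other arrays by 1.54 and 1.18 for Bmi1, 0.75 and 0.72 for Slc12a2 and 0.93 and 0.19 for Kit.

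Mitosis genes, expressed by all dividing cells of the crypt, are set beside the members because the same crypts hold both. Of 13 tested, 6 were called over the 6 times, 5 between the sets and 0 in the 24 h curve. The shares of all probe sets were 12.9%, 33.9% and 0.0111% in the same order. In the curve 10 mitosis genes had an unadjusted p under 0.05, where 3.1% of all probe sets did. The means of mitosis genes were higher in the light for all 13 (median difference 0.554, against 0.388 over the 9 members). At 8am against 8pm the median was 1.39 for mitosis genes and 0.147 for the members. No gene of any list passed in the 4 contrasts of times in limma, where 13, 13, 1 and 2 mitosis genes had an unadjusted p under 0.05 in light minus dark, 8am minus 8pm, 12pm minus 12am and 4pm minus 4am. Of all probe sets, 5.53%, 2.58%, 7.46% and 15.5% did in the same order.

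Of the cell type lists, 0 of 12 surface colonocyte genes, 1 of 7 goblet cell genes, 3 of 7 general epithelial genes, 0 of 8 smooth muscle genes, 0 of 7 neuronal and glial genes, 1 of 6 fibroblast genes, 1 of 5 endothelial genes, 2 of 6 leukocyte genes and 1 of 2 squamous genes were called over the 6 times. The share of all probe sets called was 12.9%. In the 3 lists with none called, 4, 3 and 4 genes had an unadjusted p under 0.05 in limma, where 38.9% of all probe sets did. The mean of the 9 members was 9.12 to 9.64 in the 14 arrays with a low ratio and was 9.44 (4pm b), 9.34 (4pm c), 8.80 (4am a) and 8.94 (4am b) in the others. The general epithelial mean was also at its lowest in 4am a and 4am b, but its genes differed: from their means over the 14 arrays, Cldn3 lay at -4.14 and -3.77, Krt19 at -1.58 and -2.41, and Epcam at -0.06 and 0.31. The fibroblast mean was above its range in the 14 arrays in both.

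The genes most like the members over the 18 arrays were found among 12861 others. For the mean of the 9 members they were Phf12 (r = 0.90), Atp9b, Cacna1b, Ncald and Tsnax (r = 0.86), with r of 0.68 to 0.82 over the 14 arrays. For Lgr5 alone they were Ccnk (r = 0.90), Hlcs, Ston2, Man1b1 and Gpa33 (r = 0.89), with r of 0.78 to 0.86 over the 14. The points share arrays and scaling, and these are descriptions of the best matches among many genes.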

How the data were processed

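Total RNA of distal colon was hybridised to Affymetrix mouse whole-genome arrays, 18 in all. The authors deposited 1 table with a signal intensity per probe set and array on a linear scale, made with GCOS, per the submitters' processing notes, with no version or genome build given. Its trimmed mean (2% off each end) was 500 in every array, so no further scaling was applied. It holds no detection calls, and no pair of columns was identical.

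Of 45101 probe sets, 64 controls were set apart. Of the 45037 others, 34945 had 1 gene symbol in the platform annotation, 932 several and 9160 none listed. Signals were taken as log2(signal + 16), and probe sets with a mean at or above the 40th percentile (7.10) were kept, 27022 in all. A model of 6 group means (12 residual degrees of freedom) and a 24 h cosine curve (15) were fitted to all 18 arrays with limma 3.58.1 in R 4.3.3, with empirical Bayes moderation and a trend. Adjusted p is Benjamini-Hochberg over all 27022, with a threshold of 0.05, two-sided. The fits were tested on simulated data.

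Every probe set of the 10 genes was counted, with the brightest standing for its gene. From the other lists the text names up to 3 genes per list with the lowest adjusted p over the 6 times, and the 5 genes most correlated with the members' mean and with Lgr5. The members and lists were chosen with earlier results of these data known. Alternatives changed the constant, normalization, filter, probe sets, moderation, array weights, replicate block, RNA quality term and arrays. Leaving out the 4 arrays with a Gapdh ratio above 2, or the 2 of these at 4am, was chosen after seeing the data. Promoter windows come from RefSeq (GRCm38.p6) and cover 6 of the 10 genes.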

Additional observations from a re-analysis of the deposited data

How the results depend on the processing

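Counts of member probe sets past the threshold, of 13, were 1 over the 6 times, 3 between the sets of times 12 h apart, and 0 in the 24 h curve and the 4 contrasts. Over the 6 times the count was 2 of 20 without a filter (11.4% of all probe sets called) and 8 with array quality weights (55.6%). With the Gapdh ratio as a covariate it was 2 (11.3%). With the replicate block it was 0, against 9.65% of all (Smoc2 adjusted p = 0.0523). Fits without the 3 arrays of highest ratio, the 4 of high ratio or the 2 of these at 4am leave 1 array at 4am. No count is given for them. The labels do not say whether the letters mark a batch or a pairing. Deviations of arrays with the same letter correlated between -0.527 and 0.202, with 6 of 45 pairs over 0.1, which cannot decide it. The block changed none of the other counts. Array weights gave 3 in light minus dark (6.28% of all probe sets called), 2 in 8am minus 8pm (1.28%), 3 in 4pm minus 4am (10.4%), 5 between the sets (54.5%) and called 55.6% of all over the 6 times. Between the sets, 6 of 20 passed without a filter (29.3%) and 1 with the covariate (17.8%). Leaving out 1 array gave 0 to 7 over the 6 times, 0 to 4 in light minus dark, 0 to 5 in 4pm minus 4am, 1 to 8 between the sets, and 0 in the other tests. The highest counts came without 4am c, which called 47.7% of all over the 6 times. The constant, quantile normalization, a stricter filter, 1 probe set per gene and the moderation kept these counts within 1.5 times. A change of sign was looked for only where the difference with all arrays was larger than its SE. In 4pm minus 4am the sign changed for Lgr5 (-0.13 without the 3 arrays, -0.0703 without the 4, -0.22 without the 2), Axin2 (-0.0173 without the 3, -0.0596 without the 2) and Cd44 (0.0192, 0.19 and 0.22), against 0.57, 0.79 and -0.56 with all. Each of these changed values was smaller in size than its SE (0.28 to 0.33), so an opposite direction was not shown. The cause was not tested. The table gives no background level per probe set, so how far dim probe sets stand above background is unknown.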

Other observations

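The 7 member probe sets below the filter had mean log2 levels of 5.42 to 6.72 and were not tested with the others. Cd44 1443265_at, the dimmest, read 6.16, 6.53 and 6.48 at 12pm and 5.82, 6.29 and 5.76 at 12am, above all 12 arrays of the other times (4.40 to 5.66). It passed over the 6 times only when no filter was set, as did 11.4% of all probe sets in that fit. Its signals ran from 5.08 to 76.6, so its log2 levels depend on the added constant of 16. Ascl2 1422396_s_at read 4.66, 5.34, 4.81 and 4.23 in 4pm b, 4pm c, 4am a and 4am b, below all 14 arrays with a low Gapdh ratio (6.42 to 8.07), while Ascl2 1432018_at was not low in these arrays. Cd44 1452483_a_at read 7.38, 8.11 and 7.45 at 12pm against 5.08, 4.94 and 5.34 at 12am. Its signals at 12am were 17.8, 14.7 and 24.6, near the added constant of 16. The means of 8am, 4pm, 8pm and 4am were 6.54, 6.30, 6.18 and 5.53, with 7.45 in 4pm a and 7.32 in 4am c.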
